A study of Mus musculus with 2 samples.

Results

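The clustered histone genes, most of them known as replication-dependent, were described in single cells of mouse spleen. They were taken by name alone, as all symbols beginning with Hist1h, Hist2h, Hist3h or Hist4h, the older names of the clustered histone genes. The table held 67 such symbols, and 64 had at least 1 unique molecular identifier (UMI, a tag that counts each captured RNA molecule). These 64 were members of 18393 genes with a UMI. The other 3 symbols, Hist1h2bq, Hist1h2aa and Hist1h2ba, were listed at 0. By class, 6 members encode linker histone H1, 17 encode H2A, 16 encode H2B, 12 encode H3 and 13 encode H4.

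The study profiled dissociated spleen cells with droplet-based 10x 3′ single-cell RNA sequencing. The labels give 1 spleen from a WAS-KO mouse, a model of Wiskott-Aldrich syndrome, and 1 spleen from a WT mouse, both aged 6 to 8 weeks. The same mouse-model label stands on both samples, and the labels state neither strain nor sex. The single deposited table held 7524 barcodes under 1 shared suffix, with nothing that ties a barcode to a mouse. Nothing in it shows whether both mice contributed cells. All cells were therefore treated as 1 pooled sample, the WAS-KO and WT spleens were not compared, and no p-value was computed. Intervals in brackets are exact 95% intervals that cover counting error only, not the spread between animals. A total of 6588 barcodes with at least 200 detected genes and at most 10% mitochondrial UMIs were kept. They carried 44751473 UMIs. The median cell had 5339 UMIs and 1907 genes, 5% of cells had fewer than 709 UMIs and 5% more than 15843.

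Histone proteins package DNA into nucleosomes. H2A, H2B, H3 and H4 form the core, and H1 binds the linker DNA between cores. Dividing cells need new histones when DNA is copied, and transcripts of the clustered genes rise in S phase and are degraded as replication ends. Most of these transcripts end in a short stem-loop bound by the protein SLBP, encoded by Slbp, and carry no poly(A) tail. Some clustered genes also yield polyadenylated transcripts, which are known from cells that have left the cell cycle. Because 3′ libraries are primed on poly(A), such libraries capture the tail-less forms poorly, and levels here count captured molecules only. In the adult mouse spleen, dividing cells include erythroid and myeloid precursors as well as activated lymphocytes.

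The stem-loop is shown because it is the feature that sets these transcripts apart. A 16-base match to the consensus histone stem-loop, with at most 1 mismatch and on the transcript strand, was present in the longest annotated coding transcript of 43 of the 64 members (67.2%), and 37 of these had no mismatch. The same search found it in 35 of 21813 other protein-coding genes (0.160%), and the median transcript length was 556 bases in the members and 2687 bases in the other genes. The transcripts are those of GENCODE vM21 on GRCm38, the assembly also called mm10. In the sequences of 8 members below, capitals mark the stem-loop, lower case the flanking bases, and the coordinates are those of the gene.
Hist1h2ap, chr13:21833026-21833507, minus strand: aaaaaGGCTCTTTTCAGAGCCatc
Hist1h2ae, chr13:23570517-23571220, minus strand: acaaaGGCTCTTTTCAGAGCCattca
Hist1h3c, chr13:23744973-23745602, minus strand: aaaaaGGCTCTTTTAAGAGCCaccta
Hist1h3b, chr13:23752267-23752886, plus strand: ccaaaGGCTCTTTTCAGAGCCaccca
Hist1h4d, chr13:23581598-23582735, plus strand: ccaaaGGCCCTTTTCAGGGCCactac
Hist1h1e, chr13:23620629-23622558, minus strand: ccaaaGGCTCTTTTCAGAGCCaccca
Hist1h1c, chr13:23738808-23740367, plus strand: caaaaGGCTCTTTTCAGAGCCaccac
Hist3h2a, chr11:58954685-58956830, plus strand: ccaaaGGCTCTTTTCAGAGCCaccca
The capitals were the same in the H2A and H1 members printed, and Hist1h4d carried another base pair in the stem. Hist1h3c was the one of the 8 with a mismatch to the consensus. The annotated transcript ended 3 bases past the stem-loop in Hist1h2ap and 151 bases past it in Hist1h2ae. It ran on for 770 bases in Hist1h4d, 840 in Hist1h1c, 1153 in Hist1h1e and 1643 in Hist3h2a. No match was found in the annotated transcripts of Hist1h1b, Hist1h1a and Hist1h2bc, which says only that these letters are not in those transcripts.

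Promoters of 3 H1 members are shown because these genes differ from each other in the comparisons described further on. Each runs from 250 bases before to 50 bases after the RefSeq transcription start on GRCm38.p6, 5′ to 3′ on the gene's strand. Capitals mark 3 motifs on either strand. The first is the TATA element, here TATAAA. The second, bound by the factor NF-Y, is CCAAT. The last is the H1 box, a known element of H1 promoters, here AAACACA.
Hist1h1b, chr13:21780576-21780875, minus strand: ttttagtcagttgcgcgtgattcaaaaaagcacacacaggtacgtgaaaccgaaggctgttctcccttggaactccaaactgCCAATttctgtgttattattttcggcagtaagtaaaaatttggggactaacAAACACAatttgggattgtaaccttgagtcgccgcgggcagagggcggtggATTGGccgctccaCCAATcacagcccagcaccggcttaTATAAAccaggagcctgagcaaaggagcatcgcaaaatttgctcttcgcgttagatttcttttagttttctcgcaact
Hist1h1a, chr13:23763418-23763717, plus strand: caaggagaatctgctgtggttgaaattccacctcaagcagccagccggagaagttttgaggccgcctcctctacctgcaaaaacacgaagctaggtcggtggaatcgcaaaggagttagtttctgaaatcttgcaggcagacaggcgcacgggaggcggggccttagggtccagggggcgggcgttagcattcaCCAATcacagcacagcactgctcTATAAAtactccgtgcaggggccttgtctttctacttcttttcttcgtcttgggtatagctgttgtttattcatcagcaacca
Hist1h1c, chr13:23738557-23738856, plus strand: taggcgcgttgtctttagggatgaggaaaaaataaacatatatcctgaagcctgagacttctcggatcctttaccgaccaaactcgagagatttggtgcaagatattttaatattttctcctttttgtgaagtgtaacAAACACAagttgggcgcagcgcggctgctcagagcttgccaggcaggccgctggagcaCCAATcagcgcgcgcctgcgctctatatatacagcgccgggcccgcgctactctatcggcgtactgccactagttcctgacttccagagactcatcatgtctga
Of these 3 windows, Hist1h1b held all 3 motifs, Hist1h1a lacked the letters AAACACA and Hist1h1c lacked the letters TATAAA. Only these exact letters were searched. Other forms of the elements were not counted, such as the run tatatata in the Hist1h1c window, so a missing match does not show that an element is absent. Over the 59 windows found for 58 members, CCAAT was in 84.7%, against 37.4% of all 32851 promoters of the same length. It was in every H1, H2A, H2B and H3 window and in 3 of 12 H4 windows. The exact letters TATAAA were in 55.9% of the members' windows, against 13.6% of all promoters. The H1 box was in 5 of 6 H1 windows, against 7.18% of all promoters. The octamer ATTTGCAT was in 6 of 16 H2A and 6 of 15 H2B windows and in no window of the other classes, against 1.74% of all promoters. H2A and H2B genes often share 1 divergent promoter, so these windows overlap each other. Motif matches are descriptions of letters, and no binding was measured.

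The members together had 36531 UMIs in the kept cells, 816 counts per 1000000 UMIs (CPM). H1 genes gave 42.0% of these UMIs, H2A 37.7%, H2B 8.31%, H4 8.25% and H3 3.80%. The distribution was uneven: 3 genes, Hist1h1b (6980 UMIs), Hist1h2ap (5387) and Hist1h2ae (4799), held 47.0% of member UMIs, and with Hist1h1e (4141) and Hist1h1c (2933) the share was 66.4%. There were 29 members with at least 100 UMIs, 26 with 10 to 99 and 9 with fewer than 10. By location, 51 members lie on chromosome 13 (the Hist1 cluster, 90.6% of member UMIs), 10 on chromosome 3 (Hist2, 4.38%), 2 on chromosome 11 (Hist3, 4.59%) and 1 on chromosome 6 (Hist4, 0.471%). Levels of different genes are not compared per length here, since 3′ counts do not scale with length.

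Near-identical sequence limits which gene a read can be given to. In windows of 90 bases over the last 500 bases of their transcripts, 27 members had fewer than 50% of windows found in no other annotated gene, and 3 had none. These 27 members carried 11457 UMIs. For Hist1h2ap, 7.63% of windows were unique, and its annotated near-copy Hist1h2ao had 2 UMIs. For Hist1h1e, whose 3′ end overlaps annotated transcripts of Hist1h2be on the same strand, it was 0.973%. Hist2h2aa1 had no unique window, nor did its copy Hist2h2aa2. How reads shared between genes were counted is not given. Values of these genes may therefore include reads of other genes or leave out reads of their own. Hist1h1b, Hist1h1c, Hist1h1a, Hist1h2bc, Hist1h4d and Hist3h2a had every window unique. The median was 97.6% unique in members with at least 100 UMIs and 39.4% in those with fewer.

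Mki67 encodes the Ki-67 protein that coats mitotic chromosomes, and Top2a the topoisomerase that untangles copied DNA. A UMI of either gene was used as a marker of dividing cells. A total of 1057 of 6588 cells (16.04%; 15.17 to 16.95) carried at least 1 such UMI and are called marked cells, and the other 5531 unmarked cells. Marked cells were deeper, with a median of 7862 UMIs against 5099 in unmarked cells. The members summed to 2062 CPM in marked cells, against 349 CPM in unmarked cells, a log2 ratio of 2.56 (2.53 to 2.59). Marked cells held 68.9% of all member UMIs. By class the log2 ratio was 3.22 for H2A, 2.84 for H3, 2.61 for H1, 1.70 for H4 and 0.66 for H2B. By cluster it was 2.80 for Hist1, 1.57 for Hist2, 0.55 for Hist4 and -0.55 for Hist3.

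Among members with at least 50 UMIs over both sides, 29 of 40 were at least 2-fold higher in marked cells. Over all 11565 genes with as many UMIs, 8.4% were. None of the 40 was at least 2-fold lower in marked cells, against 4.01% of all genes. The median log2 ratio was 2.41 for the 40 members and -0.06 for all genes. The minimum was set on both sides together, so a member with few UMIs in unmarked cells could pass it through marked cells alone. Hist1h3b did so, with 103 UMIs in marked and 1 in unmarked cells. So did Hist1h3c (508 and 27), Hist1h2ab (402 and 47), Hist1h2bj (119 and 42) and Hist1h3d (78 and 46). Hist2h2bb (59 and 27), Hist1h2bb (61 and 22), Hist1h2bn (61 and 15), Hist1h2ak (59 and 12) and Hist1h2af (54 and 7) did as well. All of these are among the 29. Hist2h4 (47 and 184) and Hist2h2be (36 and 109) passed through unmarked cells alone and are not among the 29. The same minimum was used for all genes. The remaining 24 members had too few UMIs for this count, so the 29 do not speak for the whole family. Thinning every cell to 1000 UMIs, which gives each cell equal weight and leaves out 609 shallow cells, lowered the log2 ratio of the sum to 1.76 and the count to 8 of 12 members with enough UMIs. The share of all genes called was not computed after thinning.

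**Figure D1:**
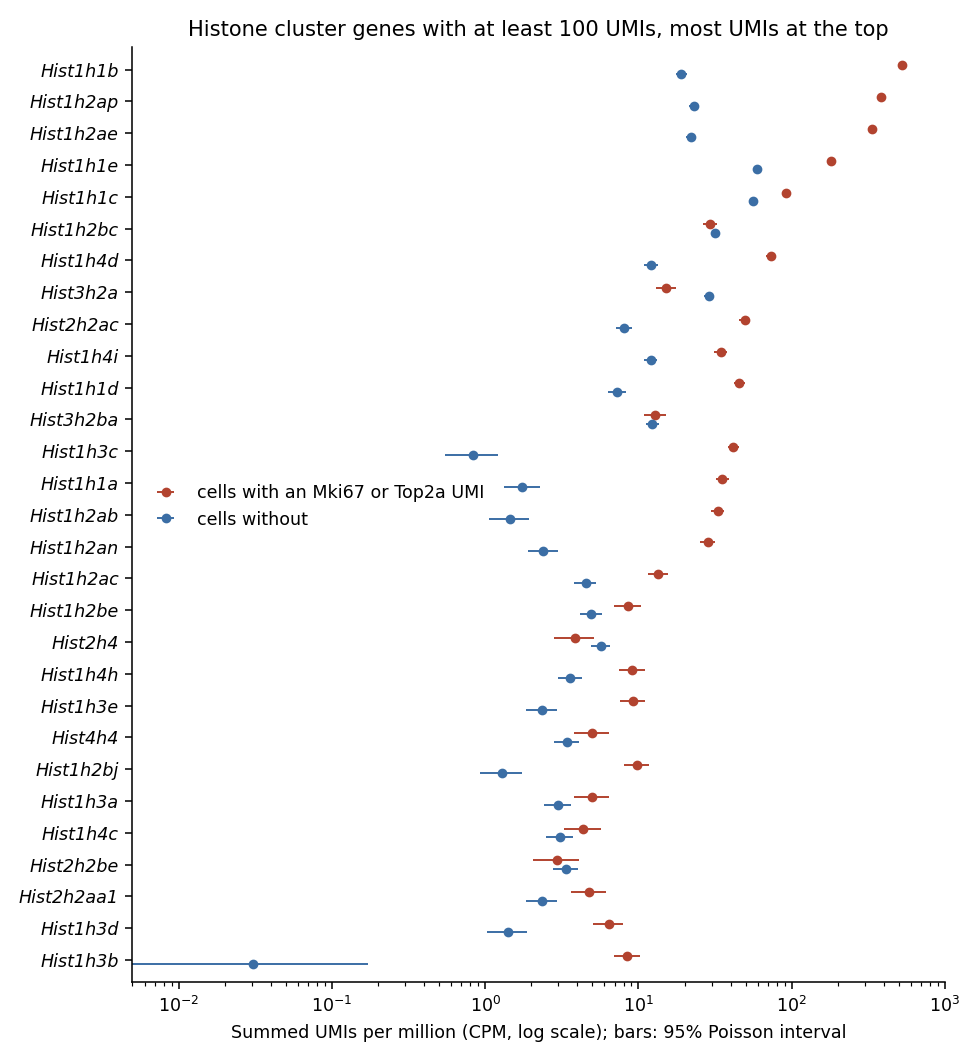
Summed CPM (log axis) of the 29 histone cluster genes with at least 100 UMIs, in 1057 marked cells (red, with an Mki67 or Top2a UMI) and 5531 unmarked cells (blue); bars are 95% Poisson intervals. Hist1h1b, Hist1h2ap and Hist1h2ae lie far apart between the 2 sets of cells, Hist1h2bc and Hist3h2ba lie together, and Hist3h2a lies lower in marked cells.

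Linker histone genes differed widely among themselves. Hist1h1b, which encodes H1.5, had 521 CPM in marked cells and 19.1 CPM in unmarked cells, 27.3-fold higher. Hist1h1a, encoding H1.1, had 35.3 CPM in marked and 1.75 CPM in unmarked cells, a log2 ratio of 4.33 (3.93 to 4.76). Hist1h1d, encoding H1.3, had 45.6 CPM in marked and 7.25 CPM in unmarked cells, a log2 ratio of 2.65. The other H1 genes had sizeable counts in both. Hist1h1e, encoding H1.4, had 181 CPM in marked cells and 59.3 CPM in unmarked cells, a log2 ratio of 1.61 (1.52 to 1.70). Hist1h1c, encoding H1.2, had 91.3 CPM in marked cells and 55.9 CPM in unmarked cells, a log2 ratio of 0.71 (0.60 to 0.82). In unmarked cells Hist1h1e and Hist1h1c were thus the H1 genes with the most UMIs (1929 and 1819), while in marked cells Hist1h1b was (6359). Hist1h1t, the testis H1 gene, had 1 UMI.

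Most H2A genes were high in marked cells, with a single exception among those with at least 100 UMIs. Hist1h2ap had 380 CPM in marked cells against 22.9 CPM in unmarked cells, and Hist1h2ae had 334 against 22.03 CPM, log2 ratios of 4.05 and 3.92. Hist1h2ab had 32.9 CPM in marked and 1.44 CPM in unmarked cells, and Hist1h2an 28.3 and 2.40 CPM, log2 ratios of 4.51 and 3.56. Hist2h2ac had 49.2 CPM in marked and 8.05 CPM in unmarked cells (log2 ratio 2.61). Hist1h2ac, with 13.4 against 4.52 CPM, and Hist2h2aa1, with 4.75 against 2.33 CPM, had log2 ratios of 1.57 and 1.03. Hist3h2a was the exception, with 15.2 CPM in marked cells and 28.7 CPM in unmarked cells, a log2 ratio of -0.92 (-1.16 to -0.69). It did not reach the 2-fold threshold.

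H2B genes with the most UMIs differed little between marked and unmarked cells. Hist1h2bc had 29.4 CPM in marked cells and 31.6 CPM in unmarked cells, a log2 ratio of -0.10 (-0.28 to 0.07). Hist3h2ba had 12.9 and 12.3 CPM in marked and unmarked cells, a log2 ratio of 0.06 (-0.21 to 0.33). Hist1h2be had 8.52 CPM in marked and 4.92 CPM in unmarked cells, and Hist2h2be 2.95 and 3.35 CPM, log2 ratios of 0.79 and -0.18. Hist1h2bj had 9.75 CPM in marked and 1.29 CPM in unmarked cells, a log2 ratio of 2.92. Of the H2B genes with fewer than 100 UMIs, Hist2h2bb (86 UMIs), Hist1h2bb (83) and Hist1h2bn (76) had log2 ratios of 2.54, 2.89 and 3.44.

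H3 genes had few UMIs but included the sharpest differences. Hist1h3c had 41.6 CPM in marked cells and 0.83 CPM in unmarked cells, a log2 ratio of 5.65 (5.09 to 6.27). Hist1h3b had 103 UMIs in marked cells and 1 in unmarked cells, a log2 ratio of 8.10 (5.59 to 13.42), and 27.98% of its windows were unique. Hist1h3d had 6.39 CPM in marked and 1.41 CPM in unmarked cells, Hist1h3e 9.18 and 2.34 CPM, and Hist1h3a 4.999 and 2.98 CPM. Their log2 ratios were 2.18, 1.97 and 0.75. The H4 genes, which encode 1 protein, ranged from -0.55 to 2.59 among those with at least 100 UMIs. Hist1h4d had 72.8 CPM in marked and 12.1 CPM in unmarked cells, Hist1h4i 34.3 and 11.98 CPM, and Hist1h4h 9.10 and 3.59 CPM, with log2 ratios of 2.59, 1.52 and 1.34. Hist4h4 had 4.999 CPM in marked and 3.41 CPM in unmarked cells and Hist1h4c 4.34 and 3.07 CPM, with log2 ratios of 0.55 and 0.50. Hist2h4 had 3.85 CPM in marked and 5.65 CPM in unmarked cells, a log2 ratio of -0.55 (-1.05 to -0.08).

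Histone UMIs were concentrated in few cells. The 100 cells with the most member UMIs held 53.6% of the total, all 100 were marked, and the highest had 563. At the other end, 1811 cells had no member UMI. A single Mki67 or Top2a UMI went with no higher level: members summed to 349 CPM in the 5531 cells with 0, 350 CPM in the 499 cells with 1, 585 CPM in the 299 cells with 2 to 4, 1011 CPM in the 98 cells with 5 to 14, and 4833 CPM in the 161 cells with 15 or more. The last 161 cells held 57.3% of all member UMIs and were also the deepest, with a median of 22043 UMIs. Over the same steps Hist1h1b was at 19.1, 28.6, 115, 206 and 1311 CPM, and Hist1h1c at 55.9, 57.3, 58.6, 68.5 and 149 CPM. Hist1h2bc was at 31.6, 22.8, 25.7, 49.1 and 31.9 CPM. Without the 100 cells with the most member UMIs, a removal that by its construction lowers the marked side, the log2 ratio of the sum was 0.83 and the count 9 of 29 members. The share of all genes called without those cells was not computed, so this count has no background beside it.

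**Figure D2:**
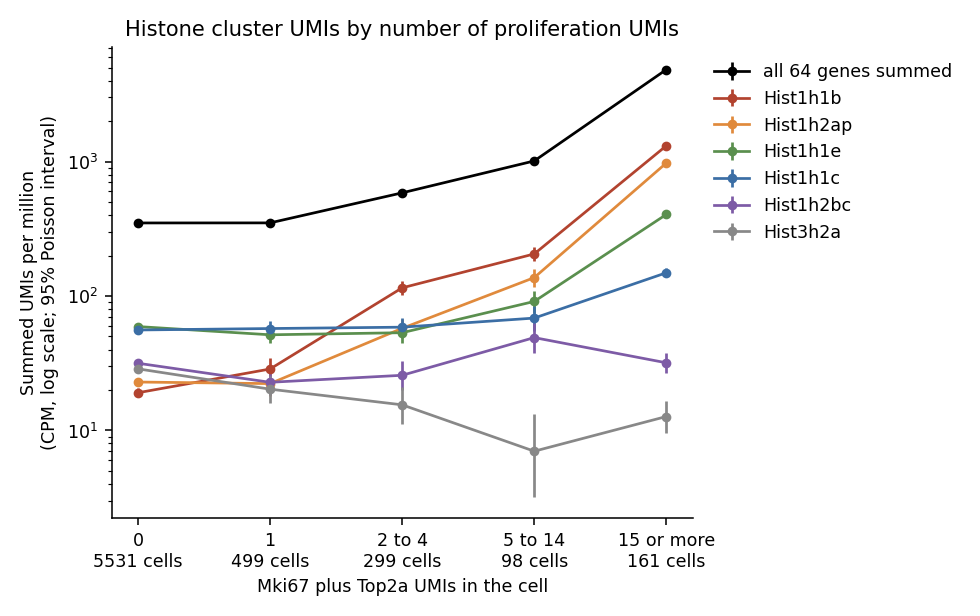
CPM (log axis) of all 64 members summed and of 6 members, by the number of Mki67 plus Top2a UMIs in a cell; bars are 95% Poisson intervals. The sum is level between 0 and 1 UMI and reaches 4833 CPM at 15 or more, while Hist1h2bc stays between 22.8 and 49.1 CPM.

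Shares of cells showed the same contrast between genes at matched depth. After thinning to 1000 UMIs, Hist1h1b was detected in 163 of 1004 marked cells (16.2%; 14.01 to 18.7) and in 96 of 4975 unmarked cells (1.93%; 1.57 to 2.35). Before thinning the shares were 33.0% in marked and 6.53% in unmarked cells. Hist1h1e was detected in 11.6% of thinned marked cells and 6.29% of thinned unmarked cells. Hist1h1c was detected in 5.98% of marked and 5.79% of unmarked cells, and Hist1h2bc in 2.29% of marked and 3.80% of unmarked cells. Thinning left out 53 marked and 556 unmarked cells. A UMI of any member was found in 40.1% of thinned marked and 30.7% of thinned unmarked cells. This share was no higher in marked B cell-gated cells (36.4% against 36.8% unmarked) and lower in marked NK cell-gated cells (26.2% against 39.9%). It was higher in marked T cell-gated (27.3% against 19.1%), erythroid-gated (61.4% against 8.13%), neutrophil-gated (60% against 31.0%) and macrophage-gated cells (42.3% against 30.3%). No gated type is known to lack these genes, so no share could be taken as background. The lowest was in neutrophil-gated unmarked cells, where none of 116 thinned cells had a Hist1h1b UMI. Taken as fewer than 3 cells, this allows a share of cells with a UMI of up to 2.59%, and the exact interval reaches 3.13%.

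Cells were gated by type on the fraction of fixed marker genes detected, with at least 3 markers and a lead of 0.2 over the next type. In each of 10 gated types no marker of that type was at 0, but these markers defined the gates, so their levels are no independent check of the type names. The gate left 1172 cells untyped, of which 570 had too few markers. Over marked and unmarked cells together, members summed to 1888 CPM in 201 erythroid-gated cells, 1783 CPM in 167 neutrophil-gated cells, 706 CPM in 98 monocyte-gated cells, 624 CPM in 2938 B cell-gated cells, 599 CPM in 315 NK cell-gated cells, 533 CPM in 1075 T cell-gated cells and 391 CPM in 493 macrophage-gated cells. The share of marked cells was 36.8% among erythroid-gated and 26.9% among neutrophil-gated cells, against 12.1% among B cell-gated cells and 16.4% among T cell-gated cells.

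Within each of these 7 types the sum was higher in marked cells, but in NK cell-gated, monocyte-gated and macrophage-gated cells this rested on 5 cells. It was 4512 CPM in marked and 99.7 CPM in unmarked erythroid-gated cells, and 3492 and 270 CPM in marked and unmarked neutrophil-gated cells, a log2 ratio of 3.69 (3.50 to 3.89). In T cell-gated cells it was 1787 CPM in marked and 194 CPM in unmarked cells (log2 ratio 3.20), and in B cell-gated cells 1423 and 447 CPM (log2 ratio 1.67). NK cell-gated and macrophage-gated cells had log2 ratios of 0.85 and 0.86. Few cells carried the marked side: the 5 marked cells with the most member UMIs held 68.0% of that side's member UMIs among T cell-gated cells, 47.7% among erythroid-gated, 31.5% among neutrophil-gated and 25.5% among B cell-gated cells. They held 83.5% among monocyte-gated, 73.4% among NK cell-gated and 58.8% among macrophage-gated cells. Leaving out those 5 cells lowers the marked side by its construction. The remaining marked cells then had 3218 CPM in erythroid-gated, 2748 CPM in neutrophil-gated, 1122 CPM in B cell-gated and 653 CPM in T cell-gated cells, still above the unmarked cells of each type. In the other 3 types the direction turned: the remaining marked cells had 393 CPM, against 435 CPM in unmarked monocyte-gated cells, 320.5 CPM against 516 CPM in unmarked NK cell-gated cells, and 317 CPM against 349.6 CPM in unmarked macrophage-gated cells.

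Haemoglobin RNA weighs on the erythroid values. Haemoglobin genes made up 43.6% of UMIs in marked and 89.3% in unmarked erythroid-gated cells. With haemoglobin, immunoglobulin and mitochondrial genes taken out of the totals, members had 8388 CPM in marked and 973 CPM in unmarked erythroid-gated cells, and the log2 ratio was 3.11 (2.86 to 3.37), against 5.50 with all UMIs. On those totals unmarked erythroid-gated cells were above unmarked B cell-gated cells, which had 496 CPM, whereas on all UMIs they were below them. Haemoglobin genes also made up 40.8% of UMIs in marked and 39.1% in unmarked macrophage-gated cells.

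The calls within types differed in how far they stood from the background. In B cell-gated cells, 12 of 26 members with at least 50 UMIs were at least 2-fold higher in marked cells, against 4.59% of all genes. In T cell-gated cells it was 10 of 14, against 4.36%. In neutrophil-gated cells it was 8 of 10, against 12.2%. In erythroid-gated cells it was 14 of 14, but 91.2% of all genes were also called, and with the reduced totals it was 12 of 14 against 63.8%. The erythroid count is therefore not a result about histones.

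The types also differed among cells with many proliferation UMIs. In cells with 15 or more Mki67 plus Top2a UMIs, members summed to 7147 CPM in 13 T cell-gated, 6511 CPM in 27 erythroid-gated, 5152 CPM in 22 neutrophil-gated, 4280 CPM in 3 plasma cell-gated, 4178 CPM in 40 B cell-gated, 2859 CPM in 4 NK cell-gated and 2810 CPM in 4 monocyte-gated cells. The 3 macrophage-gated cells of this kind had 732 CPM (478 to 1072). These cells held 90.01% of the member UMIs of erythroid-gated cells, 86.5% of those of neutrophil-gated cells, 62.8% of those of T cell-gated cells and 31.1% of those of B cell-gated cells. How far a few cells per type stand for their type was not tested.

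**Figure D3:**
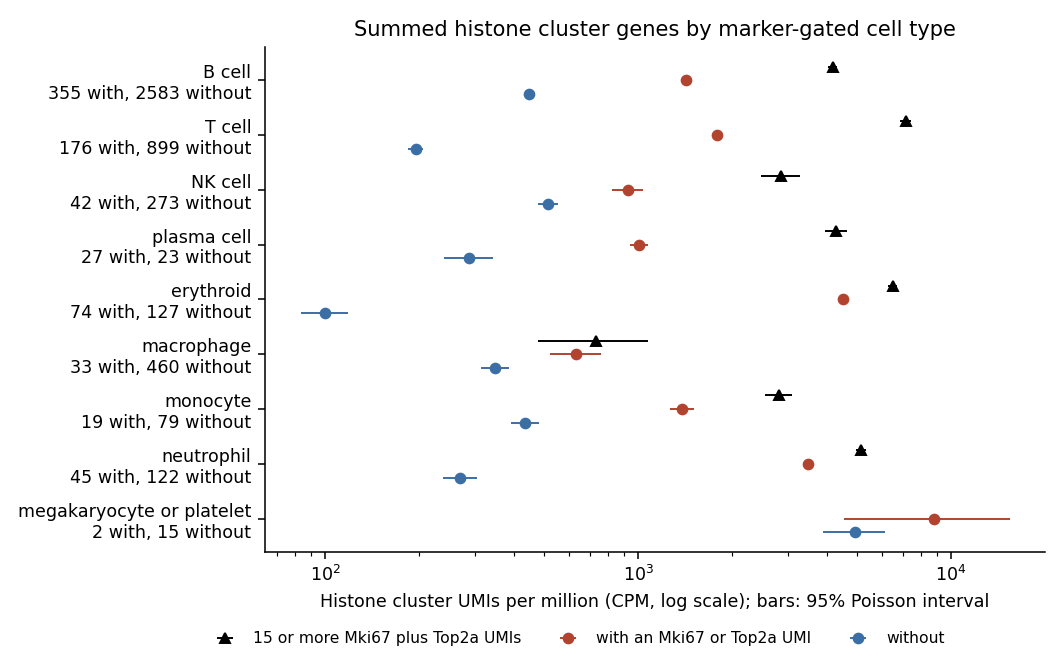
Summed CPM of the 64 members (log axis) by gated type in cells with 15 or more Mki67 plus Top2a UMIs (black triangles), all marked cells (red) and unmarked cells (blue); bars are 95% Poisson intervals. Unmarked megakaryocyte or platelet-gated cells lie at 4928 CPM, above the unmarked cells of the other 8 types drawn, which lie between 99.7 and 516 CPM. Among the types not drawn, 4 unmarked haematopoietic progenitor-gated cells had 1701 CPM.

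The H1 genes made up a different mixture in marked cells of different types. Among marked erythroid-gated cells Hist1h1a had 125 CPM (113 UMIs), against 4.93 CPM (4 UMIs) in marked neutrophil-gated cells, a log2 ratio of 4.67 (3.27 to 6.57). Hist1h1b differed less between them, at 1239 and 794 CPM in erythroid- and neutrophil-gated cells, a log2 ratio of 0.64 (0.50 to 0.78). Hist1h1e was lower in erythroid-gated cells, with 326 CPM against 478 CPM in neutrophil-gated cells. As a share of UMIs of the 5 somatic H1 genes, which does not depend on totals, Hist1h1a was 6.34% (5.25 to 7.57) in erythroid-gated and 0.328% (0.089 to 0.837) in neutrophil-gated marked cells. It was 3.996% in B cell-gated, 2.72% in T cell-gated and 3.37% in monocyte-gated marked cells. Among cells with 15 or more proliferation UMIs, Hist1h1a had 182 CPM in erythroid-gated, 89.6 CPM in T cell-gated and 84.1 CPM in B cell-gated cells. In neutrophil-gated cells of this kind it had 3.86 CPM. These are part of the same marked cells, with 106 of the 113 erythroid-gated and 2 of the 4 neutrophil-gated Hist1h1a UMIs. They are therefore no separate check.

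Other shares differed too. Hist1h1e was 16.5% of H1 UMIs in marked erythroid-gated cells and 31.8% in marked neutrophil-gated cells. In marked plasma cell-gated cells Hist1h1c was the largest part, 37.7% (32.6 to 43.0), and Hist1h1b 26.6%, from 353 UMIs in 27 cells. The 5 of these 27 cells with the most member UMIs held 75.4% of their member UMIs, so the mixture may be that of few cells. In marked B cell-gated and T cell-gated cells Hist1h1b was 60.5% and 63.7%. The H2B gene Hist3h2ba followed the contrast seen for Hist1h1a, with 49.9 CPM (45 UMIs) in erythroid-gated and 1.23 CPM (1 UMI) in neutrophil-gated marked cells. Hist1h2ap, at 746 and 825 CPM in erythroid- and neutrophil-gated marked cells, did not.

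**Figure D4:**
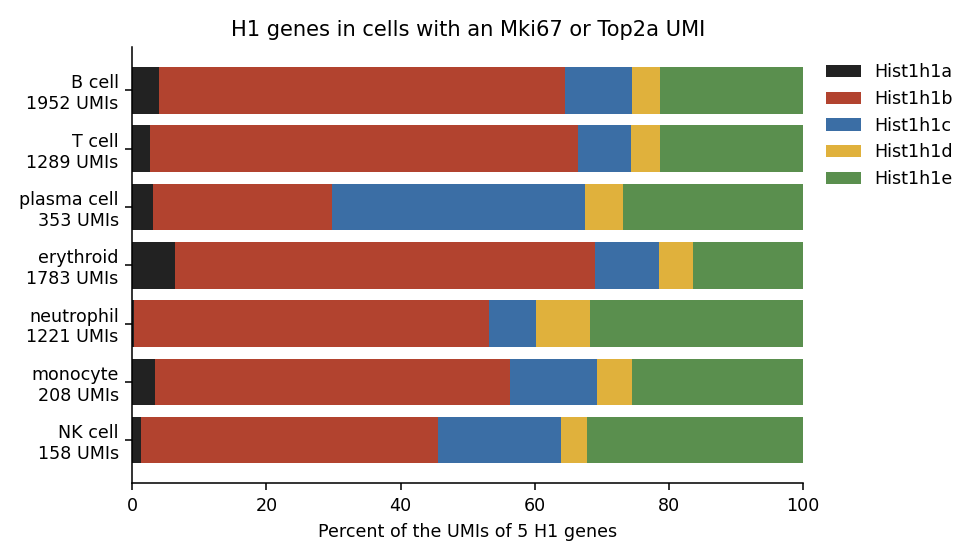
Percent of the UMIs of 5 H1 genes taken by each gene in marked cells of 7 gated types, with the number of H1 UMIs per type. Hist1h1a (black) is 6.34% in erythroid-gated and 0.328% in neutrophil-gated cells, and Hist1h1c (blue) is 37.7% in plasma cell-gated cells.

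Unmarked lymphocytes also differed in histone RNA. In unmarked cells members summed to 447 CPM in B cell-gated cells, against 194 CPM in T cell-gated cells, a log2 ratio of 1.20 (1.11 to 1.29). With haemoglobin, immunoglobulin and mitochondrial genes out of the totals the values were 496 and 206 CPM. Hist1h1e had 83.5 CPM in B cell-gated and 26.5 CPM in T cell-gated cells, a log2 ratio of 1.66 (1.42 to 1.90). Hist1h2bc had 34.6 against 10.2 CPM, and Hist1h1c 66.1 against 30.4 CPM, log2 ratios of 1.76 and 1.12. Hist3h2a had 38.8 against 18.97 CPM, a log2 ratio of 1.03. The genes that were high in marked cells differed as well: Hist1h1b had 23.5 CPM in B cell-gated against 4.70 CPM in T cell-gated unmarked cells. After thinning, Hist1h1e was detected in 7.88% of unmarked B cell-gated and 2.80% of unmarked T cell-gated cells, whose median depths had been 5049 and 6833 UMIs. Unmarked NK cell-gated cells had 142 CPM of Hist1h1e and 89.3 CPM of Hist1h1c, above both lymphocyte types, and unmarked macrophage-gated cells had 106 CPM of Hist1h2bc.

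Platelets have no nucleus and carry RNA left from the megakaryocytes that shed them. The 17 cells gated by their markers had 5236 CPM of member UMIs (4210 to 6435), from 90 UMIs in shallow cells. The 15 unmarked cells had a median of 777 UMIs. Most of the 90 UMIs came from few genes, and 15 of 17 cells had a member UMI. Hist1h2bc had 2152 CPM (37 UMIs in 11 cells), against 29.6 CPM over the other 9 main types, a log2 ratio of 6.18 (5.67 to 6.66). Hist1h1c had 1513 CPM (26 UMIs in 11 cells) against 64.6 CPM, a log2 ratio of 4.55 (3.93 to 5.105). Hist1h4i and Hist3h2a had 407 and 349 CPM, from 7 and 6 UMIs, against 17.2 and 26.6 CPM in the other types. Hist1h2ap and Hist1h2ae, among the 3 genes with the most UMIs in all kept cells, had 0 UMIs here and Hist1h1b had 3. A count of 0, taken as fewer than 3 UMIs, allows up to 175 CPM over these 17 cells, and the exact interval reaches 215 CPM. Both lie above the 75.6 and 68.8 CPM of Hist1h2ap and Hist1h2ae in B cell-gated cells, so a lower level was not detectable at this depth. Without the cell with the most, Hist1h2bc had 1616 CPM and the sum 4290 CPM. Over all kept cells, the log2 ratio of marked to unmarked cells was -0.10 for Hist1h2bc, 0.71 for Hist1h1c and -0.92 for Hist3h2a, but 1.52 for Hist1h4i.

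Within marked cells, the levels were set against the balance of S phase and G2 or M phase genes. Cells were ranked by the share of S phase UMIs in the UMIs of 28 S phase and 26 G2 and M phase genes and split into 3 equal bins. Over all such cells, members had 3187, 2318 and 354 CPM from the lowest to the highest S phase share. The highest bin had a median of 4 listed UMIs and 1 proliferation UMI per cell, against 16 and 4 in the lowest. In that comparison 21 of 22 members were at least 2-fold lower in the highest than in the lowest bin, against 7.87% of all genes. Among cells with at least 20 listed UMIs, in bins of 106, 106 and 105 cells, members had 3351, 5879 and 1865 CPM, so that the middle bin was highest. The log2 ratio of the highest to the lowest bin was then -0.85 (-0.90 to -0.79), where it was -3.17 over all cells. With these deeper cells 12 of 18 members were at least 2-fold lower in the highest bin, against 7.82% of all genes, and 1 of 18 was at least 2-fold higher, against 15.5%.

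The H1 genes again did not move together along these bins. Hist1h1b had 624, 1733 and 581 CPM from the lowest to the highest S phase share among cells with at least 20 listed UMIs. Hist1h1a, the member that was at least 2-fold higher in the highest bin than in the lowest, had 20.6, 119 and 51.1 CPM, a log2 ratio between those bins of 1.31 (0.75 to 1.90). Over all marked cells with a listed UMI the direction was the opposite, with 34.0, 62.6 and 3.08 CPM of Hist1h1a. Hist1h1c had 159, 129 and 60.9 CPM. Hist1h2ap, at 657, 1207 and 311 CPM, also peaked in the middle bin of these cells, whereas over all marked cells with a listed UMI it was highest in the lowest bin, at 650.3, 392 and 31.8 CPM. Hist3h2a and Hist3h2ba were highest in the lowest S phase bin of these cells, at 23.5, 7.63 and 5.90 CPM and at 33.2, 12.6 and 4.42 CPM. Over all marked cells with a listed UMI Hist3h2ba was also highest there, at 20.2, 9.43 and 7.40 CPM, but Hist3h2a was not, at 15.1, 13.1 and 18.5 CPM. The bins differ in cell types. Among cells with at least 20 listed UMIs they held 16, 18 and 7 erythroid-gated and 17, 8 and 4 neutrophil-gated cells. Over all marked cells with a listed UMI they held 50, 20 and 1 erythroid-gated and 30, 7 and 7 neutrophil-gated cells. The same bins held 71, 131 and 141 B cell-gated and 21, 56 and 94 T cell-gated cells. The part of cell type in these values was not tested.

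Genes around histone synthesis were compared in marked and unmarked cells from fixed lists. All 28 S phase genes were at least 2-fold higher in marked cells, with a median log2 ratio of 2.56, as were all 26 G2 and M phase genes, with a median of 5.34. Those lists share the cell cycle with the marker genes. The lists also overlap: Slbp was in both the S phase list and the list for histone transcripts. Chaf1b was in both the S phase list and the list of histone chaperone and deposition genes. Both genes were at least 2-fold higher and are counted in each of their lists. Of 15 genes for transcription and 3′ processing of histone transcripts with enough UMIs, 2 were at least 2-fold higher and none 2-fold lower, with a median log2 ratio of 0.26. Over all genes 8.4% were at least 2-fold higher and the median was -0.06, so this count is near the background. Slbp, whose protein binds the stem-loops printed above, was 1 of the 2, with 169 CPM in marked and 63.8 CPM in unmarked cells, a log2 ratio of 1.41. The other was Mblac1, with 56 UMIs in all and a log2 ratio of 1.83, named after its value was seen. Cpsf2, a cleavage complex subunit, had 82.4 and 69.7 CPM in marked and unmarked cells. Casp8ap2, a histone locus body protein, had 74.7 CPM in marked and 53.7 CPM in unmarked cells, a log2 ratio of 0.48.

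Of 20 histone chaperone and deposition genes, 8 were at least 2-fold higher in marked cells, against 8.4% of all genes, and the median log2 ratio was 0.78, against -0.06 over all genes. Of the 8, Chaf1a, a subunit of the CAF-1 complex, had 32.4 CPM in marked and 1.35 CPM in unmarked cells, and Asf1b, an H3 and H4 chaperone, 58.8 and 5.81 CPM, both named after their values were seen. Nap1l1, an H2A and H2B chaperone, had 337 CPM in marked and 214 CPM in unmarked cells. The FACT subunits Supt16 and Ssrp1 had log2 ratios of 0.75 and 0.81. Atrx, which acts with Daxx to deposit a histone outside replication, had 259 CPM in marked and 266 CPM in unmarked cells. Of 10 variant histone genes outside the clusters with enough UMIs, 5 were at least 2-fold higher in marked cells (H2afz, H2afx, Cenpa, H1f0 and H1fx, all but H2afz named after their values were seen), against 8.4% of all genes, with a median log2 ratio of 1.19. H3f3a, which encodes the replacement histone H3.3 and is polyadenylated, had 1946 CPM in marked and 2143 CPM in unmarked cells, and H3f3b had 1158 and 1052 CPM. H2afz had 1178 CPM in marked and 376 CPM in unmarked cells, a log2 ratio of 1.65.

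The annotated transcript end was set beside the level in marked cells. The 25 members whose annotated transcript ended within 200 bases of the stem-loop had a median log2 ratio of 2.90 over the 14 with at least 50 UMIs. The 18 members with more than 200 bases past it had a median of 1.55 over 16, and the 21 members with no stem-loop found a median of 3.50 over 10. The ranges overlapped, from 0.06 to 8.10, -0.92 to 2.83 and -0.18 to 4.77. At least 2-fold higher were 12 of 14, 9 of 16 and 8 of 10, against 8.4% of all genes. The groups share classes and clusters, so they are not independent, and annotated ends were not measured in these cells. Members with no stem-loop found had a median annotated length of 411 bases, against 508 and 1595 bases in the first and second groups. A stem-loop past a short annotated end could not be found, so this group does not stand for genes that lack one. Not 2-fold higher with more than 200 bases past it were Hist1h1c, Hist3h2a, Hist1h2be, Hist2h4, Hist4h4, Hist1h4c and Hist2h3c1 (60 UMIs). Those within 200 bases were Hist3h2ba and Hist1h3a, and those with no stem-loop found were Hist1h2bc and Hist2h2be. A link between the annotated end and the ratio was not tested.

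**Figure D5:**
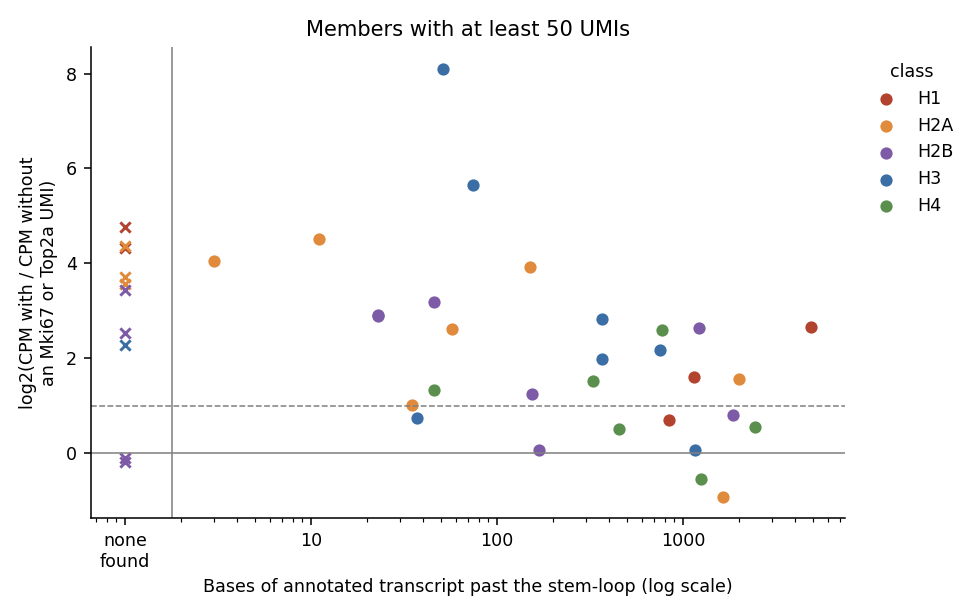
The log2 ratio of CPM in marked over unmarked cells against the bases of annotated transcript past the stem-loop (log axis), for 40 members with at least 50 UMIs, coloured by class; crosses mark members with no stem-loop found and the dashed line a 2-fold difference. Members with more than 200 bases past it have log2 ratios from -0.92 to 2.83.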

How the data were processed

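The deposited table holds whole UMI counts of 31017 gene symbols in 7524 barcodes, made by the authors from 10x 3′ libraries mapped to mm10, reference version 3.0.0, per the labels' protocols. Aligner and counting settings are not given there. The table carries no WAS-KO or WT label, so no test was run, and the depth and filters given above apply to 1 pooled sample. No column was left unmapped (0).

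UMIs were summed over cells with Python 3.11.15 and numpy 2.4.6. Intervals from scipy 1.17.1 were exact Poisson for CPM, exact binomial (Clopper-Pearson) for shares, and exact conditional binomial for ratios. A gene was called at a 2-fold difference in CPM with at least 50 UMIs over both sides. Simulated counts were drawn as Poisson counts, which is what the ratio interval assumes. On them the 95% ratio interval held the true value for 96% of 100 genes set 4-fold higher and 95.6% of 11172 unchanged genes. That checks the calculation only, because the simulation held no clumping of UMIs in few cells. Scrublet (scanpy 1.11.5) called 137 cells (2.08%, 27 of them marked) as doublets, which were kept in the main values. Members with at least 100 UMIs are described singly, and at most 12 others and the 5 genes with the most UMIs of each list are named. Members, lists and tests were chosen with earlier results of these data known, and the type gate's thresholds, the steps of proliferation UMIs and the stem-loop groups were set after seeing the data.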

Additional observations from a re-analysis of the deposited data

How the results depend on the processing

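The summed ratio in marked over unmarked cells, the summed ratio between the highest and lowest S phase share and the ratio of erythroid-gated over B cell-gated cells kept their direction under each alternative run for them. Ratios of single members, the H1 mixture within types and B cell-gated over T cell-gated cells were not run under these alternatives. The log2 ratio of summed members in marked over unmarked cells, 2.56, was 3.11 with at most 5% mitochondrial UMIs, 2.49 with at least 500 genes, 3.44 with UMIs of both marker genes required, 2.90 with Mki67 and 2.89 with Top2a required, 2.08 among cells of 5000 to 20000 UMIs, 2.37 without erythroid-gated cells and 1.76 after thinning. With settings chosen after seeing the data it was 3.29 for cells with at least 3 proliferation UMIs and 0.83 without the 100 cells with the most member UMIs. The count of members at least 2-fold higher, 29 of 40, was 8 of 12 after thinning and 16 of 28 in cells of 5000 to 20000 UMIs. It was 14 with at least 200 UMIs required (of 20 members left) and 9 of 29 without those 100 cells. Its other 12 alternatives stayed within 1.5 times. The share of all genes called was not computed under these alternatives, so how far their counts stand from the background is not known.

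The log2 ratio of the highest to the lowest S phase share, -3.17, was -2.37 with at most 5% mitochondrial UMIs, -3.07 with no such maximum, -3.34 on totals without haemoglobin, immunoglobulin and mitochondrial genes, -2.40 after thinning, -1.32 with 2 bins and, chosen after seeing the data, -0.85 with at least 20 listed UMIs. Summed members in erythroid-gated over B cell-gated cells had a log2 ratio of 1.60, and of 1.08 with at most 5% mitochondrial UMIs, 2.71 with at least 500 genes, 3.29 on the reduced totals, 2.17 with 1 more marker and, chosen after seeing the data, 2.20 with a lead of 0.3. The summed CPM ranged over its alternatives from 1691 to 6769 in erythroid-gated cells and from 3854 to 6503 in megakaryocyte or platelet-gated cells. The H1 share, 42.0%, was 42.6% with at most 5% mitochondrial UMIs. The causes of these shifts were not tested beyond what each setting does by its construction. No paired analysis was possible because barcodes are not tied to samples and each group has 1 sample. Depth limits the 35 members with fewer than 100 UMIs and every value in the 17 megakaryocyte or platelet-gated cells.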
